A study of Mus musculus with 75 samples.

Results

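The 30 genes described here encode the steps of glucose uptake, glycolysis, lactate handling and glycogen turnover in skeletal muscle. They were chosen by gene symbol from a list drawn up with earlier results of these data known, and all 30 of them were among the 13856 genes of the deposited expression table. RNA sequencing measured expression in the gastrocnemius, a calf muscle made mostly of fast fibres, in BALB/c mice of both sexes. Hosts bore tumours grown from C26, a colon carcinoma line of mouse origin used as a model of muscle wasting, and tumour-free mice had received phosphate-buffered saline (PBS) in place of cells. From day 12 the tumour hosts were given 5-fluorouracil, which blocks thymidylate synthesis, paclitaxel, which stabilises microtubules, cisplatin, which crosslinks DNA, or saline as vehicle, and PBS mice were given saline. The drugs were given over 2 cycles at 75% of the maximum tolerated dose of each, and muscle was taken at day 25.

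The male libraries comprised 8 from C26 hosts given 5-fluorouracil, 6 from C26 hosts given paclitaxel, 8 from C26 hosts given cisplatin, 8 from C26 hosts given saline and 8 from PBS mice given saline. The female libraries comprised 8 for 5-fluorouracil, 7 for paclitaxel, 6 for cisplatin, 7 for C26 saline and 7 for PBS saline. Every drug group carried C26 tumours, so the groups hold no drug effect in tumour-free muscle. The labels do not give a usable age, and they do not say whether libraries of a group came from separate cages or procedures, so the tests weigh differences against the spread among these libraries, which may be technical.

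In glycolysis, hexokinases trap glucose in the fibre, and a chain of enzymes turns it into pyruvate with a small yield of ATP. Fast fibres rely on this chain during short efforts, and they feed it from glycogen, which glycogen phosphorylase splits after activation by phosphorylase kinase. Glycogen is rebuilt from UDP-glucose by glycogen synthase and a branching enzyme, with protein phosphatase 1 held at the glycogen particle by targeting subunits.

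Promoter sequences are shown for 4 of these genes because they were among those with the largest differences in male tumour hosts. The mouse RefSeq table (GRCm38.p6) held 1 or more start sites for 28 of the 30 genes, not for Slc2a4 or Gpd1. Each sequence runs 5′ to 3′ along the gene's strand from 250 bases before to 50 bases after the annotated start. Capitals mark the E-box CANNTG, the core bound by MyoD-family factors, and the MEF2 consensus, in each case on either strand. Pgam2 lies at chr11:5803747-5804046 on the minus strand, Eno3 at chr11:70656926-70657225 on the plus strand, Phkg1 at chr5:129879039-129879338 on the minus strand and the upstream start of Ugp2 at chr11:21371218-21371517 on the minus strand.
Pgam2: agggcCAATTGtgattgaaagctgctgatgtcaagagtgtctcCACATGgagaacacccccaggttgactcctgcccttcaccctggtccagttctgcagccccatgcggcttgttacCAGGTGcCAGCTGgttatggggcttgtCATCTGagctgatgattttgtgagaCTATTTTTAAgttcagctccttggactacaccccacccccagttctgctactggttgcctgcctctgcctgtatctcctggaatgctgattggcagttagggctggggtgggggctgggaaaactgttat
Eno3: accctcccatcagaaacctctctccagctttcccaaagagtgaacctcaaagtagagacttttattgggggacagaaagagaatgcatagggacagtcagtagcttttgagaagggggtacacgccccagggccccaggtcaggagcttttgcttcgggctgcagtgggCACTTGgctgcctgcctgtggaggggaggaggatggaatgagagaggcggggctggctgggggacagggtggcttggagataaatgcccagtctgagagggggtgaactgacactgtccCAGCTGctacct
Phkg1: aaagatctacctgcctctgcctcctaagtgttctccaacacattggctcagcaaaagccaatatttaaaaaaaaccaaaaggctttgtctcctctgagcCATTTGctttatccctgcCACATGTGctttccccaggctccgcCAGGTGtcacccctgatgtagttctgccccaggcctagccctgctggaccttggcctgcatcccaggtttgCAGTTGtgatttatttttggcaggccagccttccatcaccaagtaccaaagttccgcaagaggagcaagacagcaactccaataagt
Ugp2: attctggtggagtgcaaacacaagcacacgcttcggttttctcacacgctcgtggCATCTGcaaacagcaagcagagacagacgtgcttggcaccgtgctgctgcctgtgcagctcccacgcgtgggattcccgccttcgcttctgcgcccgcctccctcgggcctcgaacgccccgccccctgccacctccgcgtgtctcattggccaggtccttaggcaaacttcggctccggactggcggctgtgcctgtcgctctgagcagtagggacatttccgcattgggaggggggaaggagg
The Pgam2 window held 5 E-boxes and 1 MEF2 match, the Eno3 window 2 E-boxes, the Phkg1 window 5 E-boxes of which a pair overlaps, and the Ugp2 window 1 E-box. E-boxes were present in 33 of the 41 windows of the 28 genes (80.5%) and in 72.3% of the 32851 mouse promoter windows in the table. MEF2 matches were present in 3 of the 41 windows (7.32%) and in 3.19% of all windows, and the 3 genes were Pfkfb1, Pgam2 and Ppp1r3a. A match describes letters in these windows and is not a measured binding site.

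Counts recovered from the log2 values summed to 11.4 to 40.5 M reads per library, with a median of 22.5 M. All 30 genes had a mean log2 expression of at least 1, and their values ranged from 2.19 to 15.28 over all libraries. In 19 libraries, expression leaned toward GC-rich transcripts, with a slope above 0.1 log2 units per standard deviation of transcript GC content. These were 4 of 8 male 5-fluorouracil, 4 of 6 male paclitaxel, 2 of 8 male cisplatin, 0 of 8 male C26 saline and 2 of 8 male PBS libraries, and 2, 2, 0, 1 and 2 libraries of the same female groups. The median share of mitochondrially encoded transcripts was 2.58% for those 19 and 10.4% for the remaining libraries, and that of the 30 genes together 7.18% and 5.70%. Male C26 saline replicate 4 and female C26 saline replicate 7 also stood apart from their groups for several of the genes. Counts of called genes in the male comparisons with C26 saline muscle are also given without replicate 4. Those of the female tumour comparison are also given without replicate 7.

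In male muscle 12 genes of this pathway were lower with the tumour. Relative to male PBS muscle, 12 of the 30 genes fell and 4 rose in male C26 saline muscle, where 26.1% of all genes passed the test (13.1% higher and 13% lower). The falls included the glucose transporter Slc2a4, later steps of glycolysis and genes of glycogen breakdown, with the largest in Pgam2, Phkg1 and Gpd1. The rises were in Ugp2, Ppp1r3c, Fbp2 and Hk1. The median log2 difference of the 30 genes was -0.31, against 0.0025 for all genes. Calls rest on limma with Benjamini-Hochberg adjustment across the 13856 genes and a limit of 0.05, and log2 differences are given ± the standard error of the fit. In bulk muscle, fewer cells of a type and less RNA per cell cannot be told apart.

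Lower glycolysis held the most falls, with 4 of its 5 genes called. Pgam2 (ENSMUSG00000020475), the muscle phosphoglycerate mutase, had a lowest, median and highest log2 expression of 9.01, 9.79 and 11.01 in male C26 saline muscle and 10.54, 10.80 and 11.40 in male PBS muscle. It fell by 1.05 ± 0.22 (adjusted p = 0.000184). Apart from replicate 4, every C26 saline library lay below every PBS library. Eno3 (ENSMUSG00000060600), the muscle enolase, lay at 10.71, 11.40 and 12.50 in C26 saline and 12.11, 12.29 and 12.74 in PBS muscle, a log2 difference of -0.90 ± 0.19 (adjusted p = 0.000125). Pkm, pyruvate kinase, lay at 10.53, 10.93 and 12.06 in C26 saline and 11.64, 11.79 and 12.21 in PBS muscle, a log2 difference of -0.87 ± 0.18 (adjusted p = 0.000126). Both genes showed the same arrangement as Pgam2, with 7 of 8 tumour libraries under the lowest PBS library and replicate 4 inside the PBS range. Pgk1, phosphoglycerate kinase, lay at 9.10, 9.53 and 10.26 in C26 saline and 9.87, 9.99 and 10.16 in PBS muscle and fell by 0.49 ± 0.12 (adjusted p = 0.00102). Here replicate 4 lay above every PBS library and the other 7 below. Gapdh, which catalyses the oxidative step of glycolysis, did not pass, at -0.039 ± 0.11.

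Of the upper chain, only the triose phosphate isomerase gene Tpi1 was called among the 4 genes. It lay at 9.55, 10.08 and 11.08 in male C26 saline and 10.68, 10.86 and 11.25 in male PBS muscle and fell by 0.81 ± 0.15 (adjusted p = 3.45e-05). Pfkm, the muscle phosphofructokinase, stood at -0.35 ± 0.15 (adjusted p = 0.0672), the phosphoglucose isomerase gene Gpi1 at 0.13 ± 0.14 and the aldolase gene Aldoa at 0.18 ± 0.18. Pfkfb1, a bifunctional enzyme that sets fructose-2,6-bisphosphate, the activator of phosphofructokinase, lay at 4.88, 5.43 and 6.46 in C26 saline and 5.92, 6.24 and 6.46 in PBS muscle and fell by 0.77 ± 0.17 (adjusted p = 0.000353). For Tpi1 and Pfkfb1, 7 of 8 tumour libraries lay below every PBS library, with replicate 4 the exception. Its paralogues Pfkfb3 and Pfkfb4 did not pass, at 0.56 ± 0.52 and 0.26 ± 0.18. Pfkfb3 spread over more than 4 log2 units among the male C26 saline libraries, which held 5.42, 8.13 and 9.64 as lowest, median and highest value.

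At the entry and exit of the pathway the changes were smaller. Slc2a4, the insulin-responsive glucose transporter GLUT4, lay at 8.89, 9.06 and 9.57 in male C26 saline and 9.25, 9.41 and 9.63 in male PBS muscle and fell by 0.31 ± 0.10 (adjusted p = 0.0218). Ldha, the lactate dehydrogenase subunit of glycolytic muscle, lay at 10.32, 10.86 and 11.43 in C26 saline and 11.01, 11.21 and 11.57 in PBS muscle and fell by 0.37 ± 0.14 (adjusted p = 0.0488). For both genes 6 of 8 tumour libraries lay under the lowest PBS library. Hk1, a hexokinase of most tissues, lay at 3.52, 3.90 and 4.18 in C26 saline and 3.08, 3.47 and 3.91 in PBS muscle and rose by 0.39 ± 0.15 (adjusted p = 0.0448), with the groups overlapping. These 3 calls are near the threshold, and 1 or more single libraries or another setting end each of them. Scaling to the plain library sum ended the calls of Slc2a4 (adjusted p = 0.0935) and Ldha (adjusted p = 0.087), and quantile normalization ended that of Hk1 (adjusted p = 0.0636). The insulin-independent transporter Slc2a1 (GLUT1), the lactate exporter Slc16a3 (MCT4), the main muscle hexokinase Hk2 and the heart-type lactate dehydrogenase Ldhb did not pass, at 0.35 ± 0.20, -0.33 ± 0.21, -0.21 ± 0.18 and -0.31 ± 0.34.

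Of the 4 glycogen breakdown genes 3 fell, and 2 of the 5 genes on the side of glycogen synthesis rose. Phkg1 (ENSMUSG00000025537), the catalytic subunit of muscle phosphorylase kinase, lay at 7.27, 8.18 and 9.18 in male C26 saline and 8.96, 9.09 and 9.37 in male PBS muscle. It fell by 1.00 ± 0.15 (adjusted p = 3.97e-07), the smallest adjusted p of the 30 genes in this comparison. Again 7 of 8 tumour libraries lay below every PBS library. Phka1, the regulatory alpha subunit, lay at 7.78, 8.53 and 9.65 in C26 saline and 9.10, 9.29 and 9.57 in PBS muscle, with a log2 difference of -0.70 ± 0.16 (adjusted p = 0.000317). Pygm, the muscle glycogen phosphorylase whose loss causes McArdle disease in people, lay at 12.28, 12.72 and 13.69 in C26 saline and 13.14, 13.28 and 13.65 in PBS muscle, with -0.54 ± 0.16 (adjusted p = 0.00582). For Phka1 and Pygm replicate 4 was above every PBS library and the other 7 were below all of them. The Pygm call was lost under quantile normalization, at -0.13 (adjusted p = 0.531). Phkb, the beta subunit, stood at -0.40 ± 0.18 (adjusted p = 0.0981).

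Ugp2 (ENSMUSG00000001891), which makes the UDP-glucose used by glycogen synthase, lay at 8.47, 9.59 and 10.66 in male C26 saline and 7.43, 8.71 and 9.10 in male PBS muscle. It rose by 1.04 ± 0.37 (adjusted p = 0.0278), with 6 of 8 tumour libraries above every PBS library and replicate 4 the lowest of its group. Leaving out single libraries raised its adjusted p to at most 0.0806, and 12 of 16 such fits kept the call. Ppp1r3c, the phosphatase-targeting subunit PTG that promotes glycogen storage, lay at 9.70, 10.27 and 11.12 in C26 saline and 8.96, 9.56 and 9.69 in PBS muscle. It rose by 0.85 ± 0.26 (adjusted p = 0.00911) and was the only 1 of the 30 genes whose groups did not overlap, where 4.9% of all genes had groups that did not overlap. Glycogen synthase itself, Gys1, stood at 0.051 ± 0.12, the branching enzyme Gbe1 at 0.50 ± 0.28 (adjusted p = 0.188) and the muscle targeting subunit Ppp1r3a at -0.088 ± 0.50. None of these 3 passed.

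The 2 remaining genes went opposite ways. Gpd1, the cytosolic glycerol-3-phosphate dehydrogenase that links glycolysis to glycerol lipids and to the glycerol phosphate shuttle, lay at 7.83, 8.68 and 9.67 in male C26 saline and 9.40, 9.53 and 9.90 in male PBS muscle and fell by 0.99 ± 0.18 (adjusted p = 1.43e-05). Fbp2, the muscle fructose-1,6-bisphosphatase that opposes phosphofructokinase, lay at 5.24, 6.46 and 6.75 in C26 saline and 5.34, 5.62 and 6.05 in PBS muscle and rose by 0.73 ± 0.16 (adjusted p = 0.000326). In 7 of 8 tumour libraries Gpd1 was below, and Fbp2 above, every PBS library, and the library that departed was replicate 4 for Gpd1 and replicate 8 for Fbp2.

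**Figure D1:**
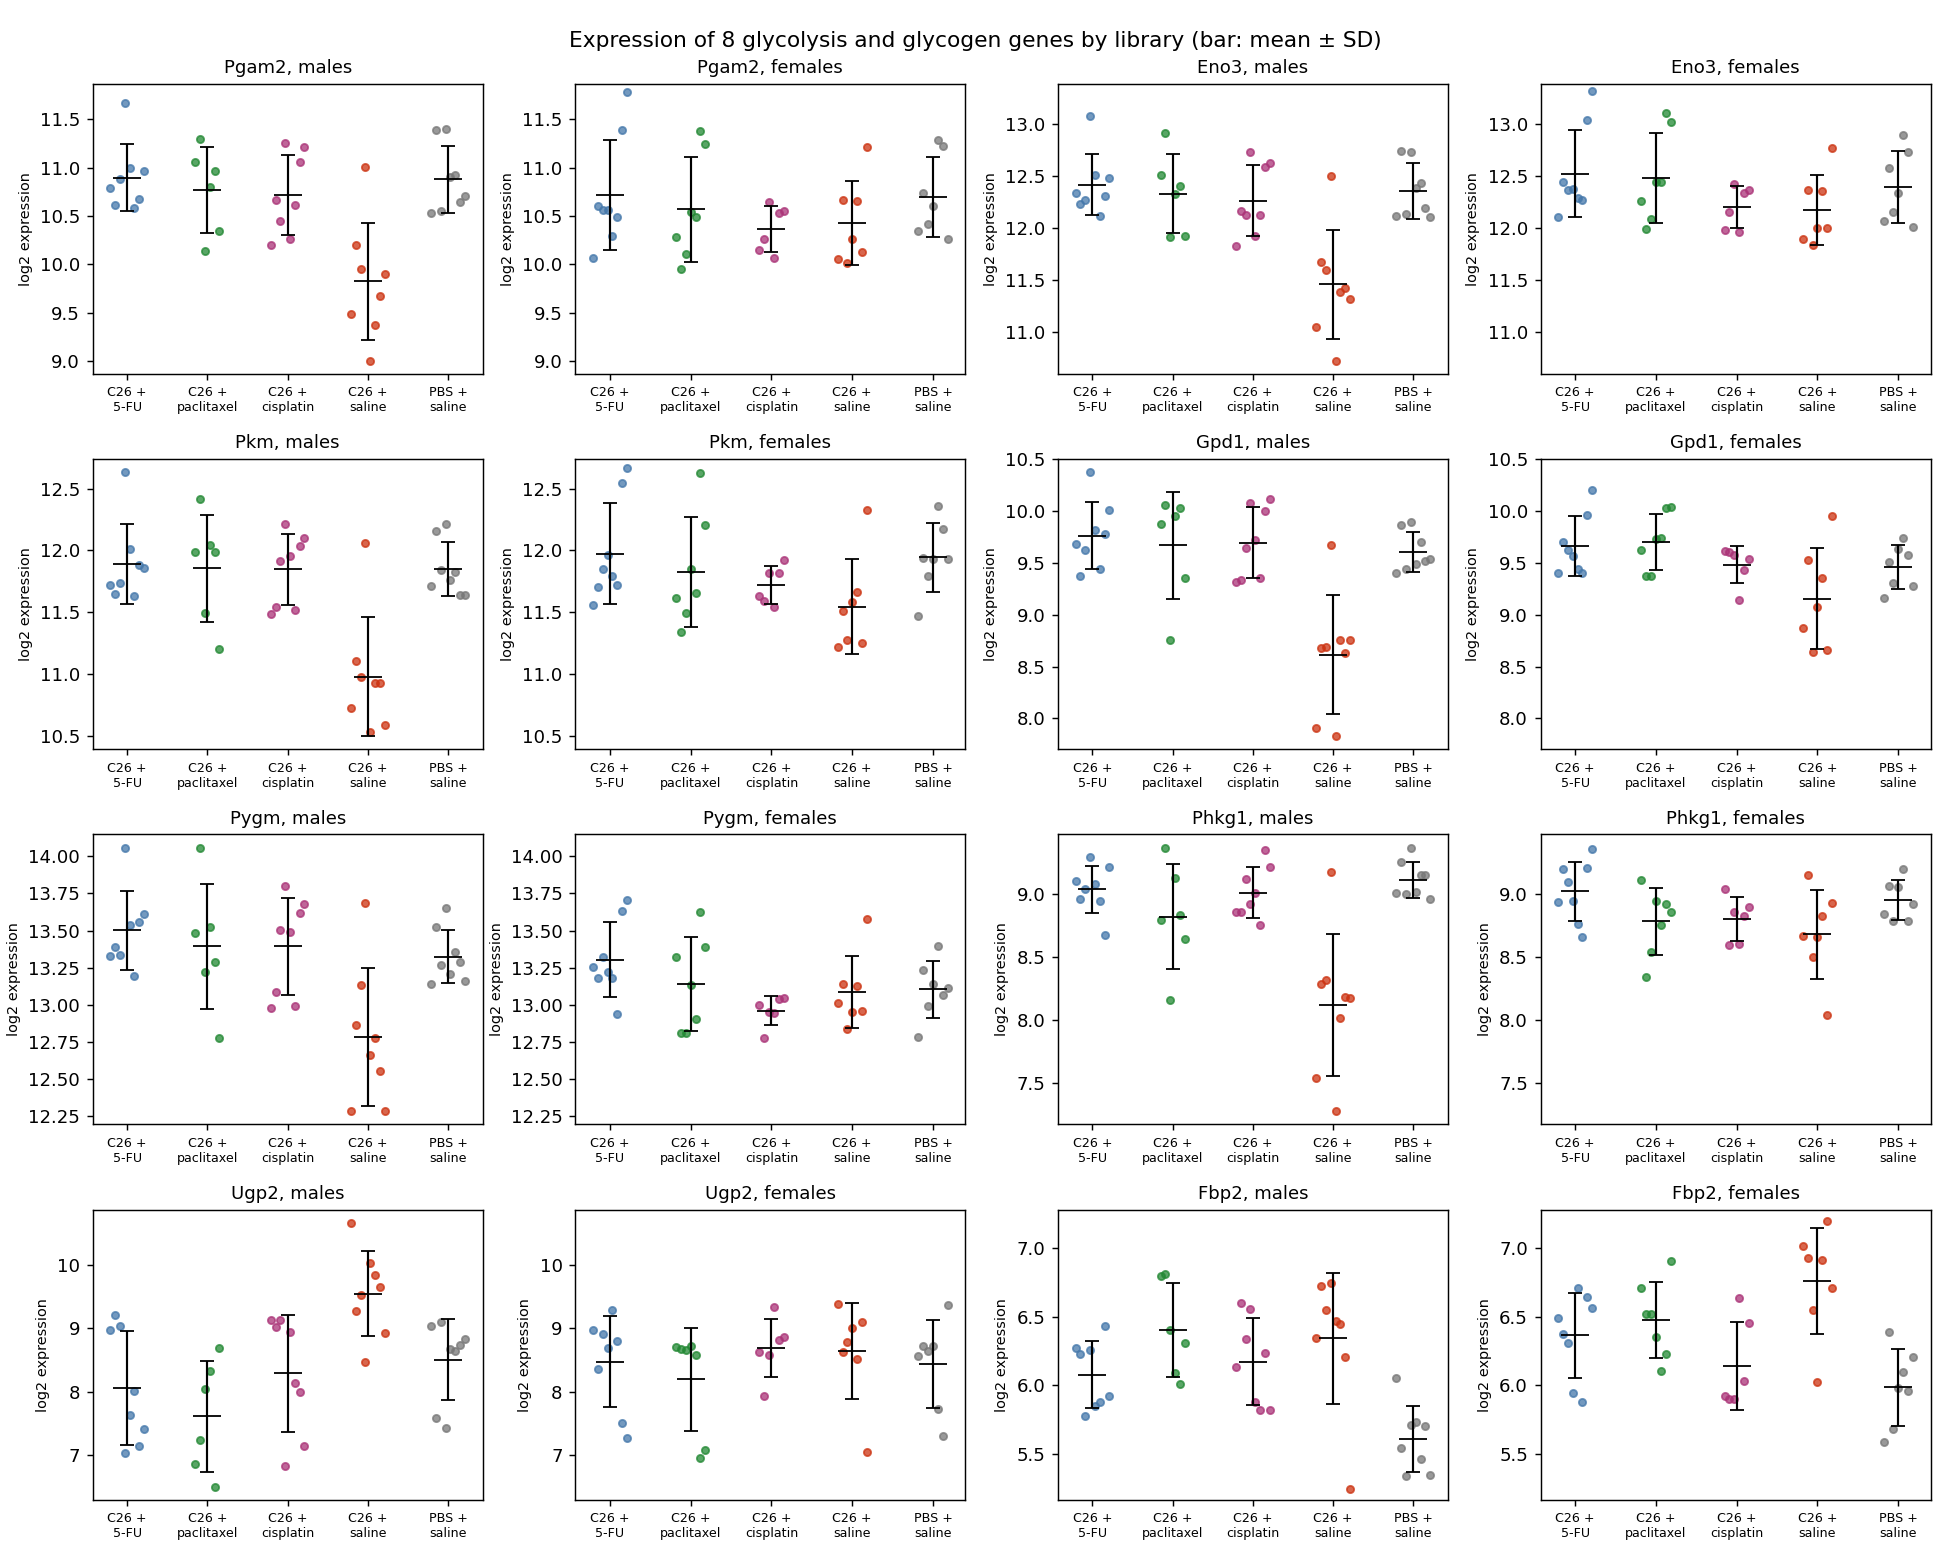
Log2 expression (vertical axes, same range for both sexes of a gene) of 8 of the genes in each library, with each group's mean and SD as bars, for C26 hosts given 5-fluorouracil, paclitaxel, cisplatin or saline and for PBS mice given saline. In males the C26 saline libraries lie low for Pgam2, Eno3, Pkm, Gpd1, Pygm and Phkg1 with 1 high point, replicate 4. In the comparisons with C26 saline or PBS muscle, the groups of both sexes overlap for all 8 genes.

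Male C26 saline replicate 4 stood high in its group for these genes. Its mean log2 over the 30 genes was 9.38, against 8.97 in replicate 3, the next highest of the group. It was the exception for most of the genes above, so their counts of libraries below the PBS range are not separate findings. The share of all genes with such counts was not computed. Without replicate 4, 15 of the 30 genes fell and 3 rose, and the falls grew to -1.22 ± 0.22 for Pgam2, -1.05 ± 0.18 for Eno3, -1.03 ± 0.17 for Pkm, -1.14 ± 0.17 for Gpd1 and -1.15 ± 0.14 for Phkg1. Pfkm then passed at -0.49 ± 0.14 (adjusted p = 0.00437), and Hk1 no longer did (adjusted p = 0.0575). The share of all genes that passed without replicate 4 was not computed, so the counts of 15 and 3 cannot be set beside it.

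Markers of other fibres and cells moved with the same comparison. Of 12 fast fibre markers 6 fell and 0 rose, and their summed back-transformed expression had a lowest, median and highest value of 91400, 121000 and 216000 in male C26 saline muscle and 153000, 170000 and 216000 in male PBS muscle. Of 9 slow fibre markers 0 were called, with sums of 268, 1350 and 3370 in C26 saline and 629, 1390 and 2240 in PBS muscle. All 7 measured neutrophil markers rose, with sums of 10.2, 27.4 and 33.2 in C26 saline and 1.43, 2.59 and 12.3 in PBS muscle, and 6 of 8 macrophage markers rose, with sums of 62.0, 116 and 173 in C26 saline and 39.2, 56.3 and 70.1 in PBS muscle. Adipocyte markers summed to 1090, 1700 and 2450 in C26 saline and 571, 637 and 724 in PBS muscle, with 1 of 8 called higher and 1 lower. The fast fibre markers moved in the direction of the glycolytic genes and the neutrophil, macrophage and adipocyte sums against it. The adipocyte sum weighs Plin4 and Fabp4 most, with median log2 values over all libraries of 9.91 and 7.62, against 5.41 for the next marker, Cfd. The part of these markers in the result was not tested.

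In female muscle few of these genes were called with the tumour. Relative to female PBS muscle, 3 of the 30 rose and 0 fell in female C26 saline muscle, where 6.7% of all genes passed (4.14% higher and 2.56% lower). The 3 were Fbp2, Pfkfb4 and Hk1, and Fbp2 and Hk1 had also been called higher in males. The median log2 difference of the 30 genes was -0.095, against -0.0098 for all genes.

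Fbp2 lay at 6.02, 6.91 and 7.20 in female C26 saline and 5.58, 5.98 and 6.38 in female PBS muscle and rose by 0.78 ± 0.17 (adjusted p = 0.00178). Hk1 lay at 3.75, 4.08 and 4.43 in C26 saline and 3.26, 3.65 and 3.89 in PBS muscle and rose by 0.53 ± 0.16 (adjusted p = 0.0309). For both, 6 of 7 tumour libraries lay above every PBS library. Pfkfb4 (ENSMUSG00000025648), an isoform known from hypoxic and tumour cells, lay at 5.78, 6.40 and 7.09 in C26 saline and 4.90, 5.70 and 6.21 in PBS muscle and rose by 0.73 ± 0.20 (adjusted p = 0.0125), with 4 of 7 tumour libraries above every PBS library. Leaving out C26 saline replicate 6 left 1 called gene, and without C26 saline replicate 7 there were 2. Hk1 lost its call in 5 of the 14 fits that left out 1 library (adjusted p at most 0.0818).

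Cell markers moved in the same female libraries. Neutrophil markers summed to 5.73, 12.7 and 37.4 (lowest, median and highest) in female C26 saline and 1.10, 2.31 and 3.92 in female PBS muscle, without overlap, and 6 of 7 rose. Macrophage markers summed to 88.3, 121 and 179 in C26 saline and 43.2, 63.0 and 90.8 in PBS muscle, and 4 of 8 rose. Adipocyte markers summed to 1320, 1620 and 2440 in C26 saline and 773, 980 and 1390 in PBS muscle. Slow fibre markers summed to 834, 2810 and 4020 in C26 saline and 959, 2540 and 4510 in PBS muscle. Fast fibre markers summed to 133000, 147000 and 208000 in C26 saline and 120000, 155000 and 187000 in PBS muscle, and 2 of 12 fell. Their part in the result was not tested.

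The genes that had fallen in males showed smaller differences in females, none of which passed. Pgam2 lay at 10.01, 10.26 and 11.21 in female C26 saline and 10.26, 10.61 and 11.28 in female PBS muscle, a log2 difference of -0.27 ± 0.24 (adjusted p = 0.614). Phkg1 stood at -0.27 ± 0.16, Gpd1 at -0.30 ± 0.19, Pkm at -0.40 ± 0.19, Tpi1 at -0.33 ± 0.16 and Pygm at -0.017 ± 0.17. Ppp1r3c stood at 0.77 ± 0.27 in females (adjusted p = 0.0767), close in size to its male difference, while Ugp2 stood at 0.20 ± 0.39.

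The difference between the sexes in the tumour effect was not established for any of the 30 genes. In the interaction of sex with tumour 0 of 30 were called, where 0.0361% of all genes passed (0.0144% higher and 0.0217% lower), and 9 had an unadjusted p under 0.05, as had 1132 of the 13856 genes. The smallest of these was that of Phkg1, whose tumour difference was lower in males than in females by -0.73 ± 0.22 (male minus female, adjusted p = 0.24), followed by Phka1 at -0.63 ± 0.23 and Gpd1 at -0.69 ± 0.26. Without male C26 saline replicate 4, 2 of the 30 passed. The share of all genes in that fit was not computed, so the count is not read as a sex difference of these genes.

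**Figure D2:**
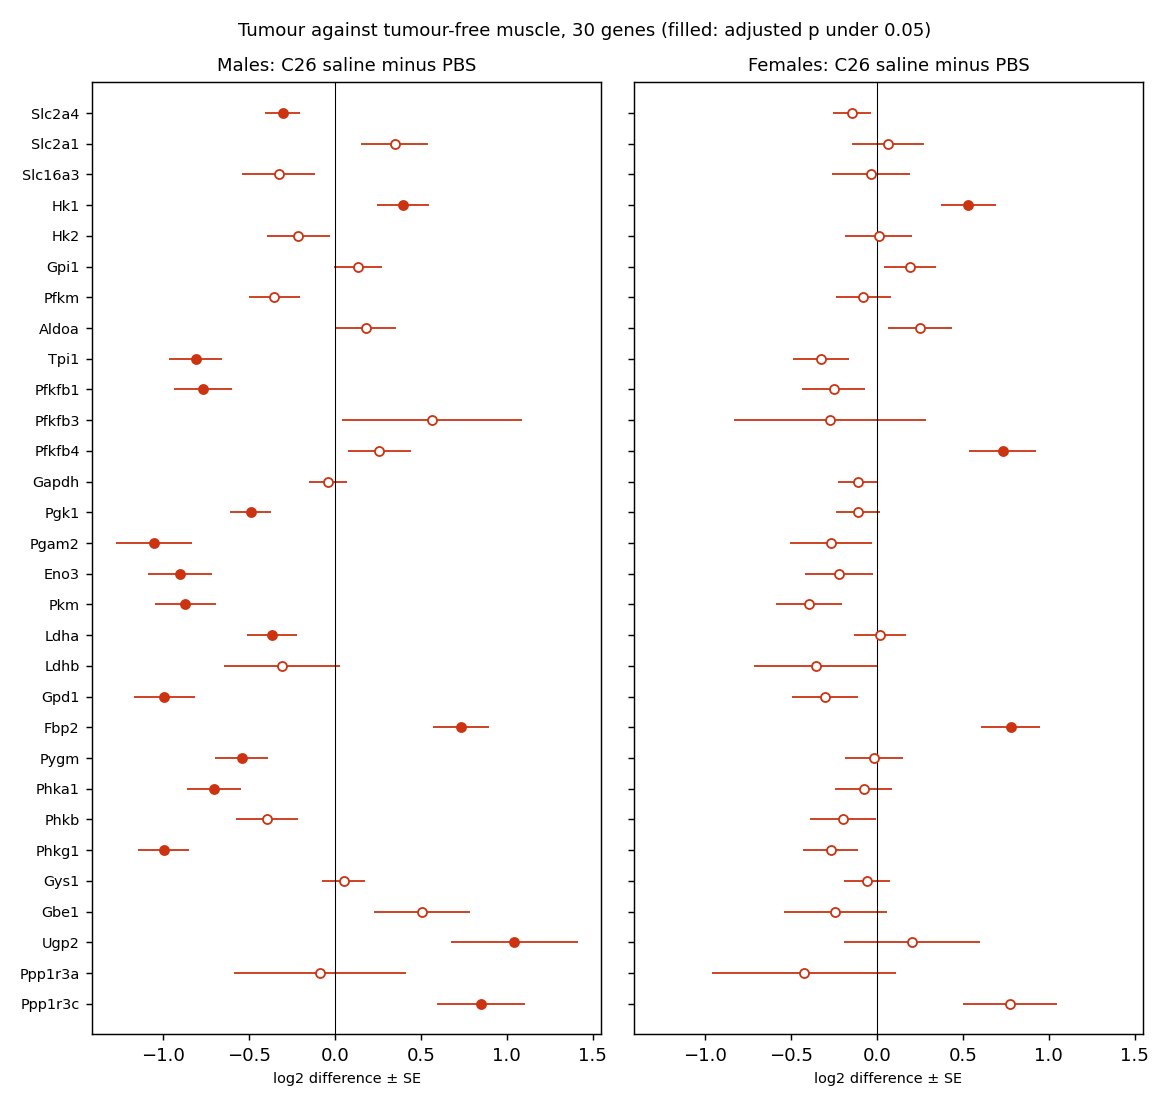
Log2 difference of C26 saline minus PBS saline (horizontal axis, ± SE) of the 30 genes in males and females, filled where the limma adjusted p is under 0.05. The males show 12 filled points left of 0 and 4 right of it, the females 3 to the right.

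In tumour-bearing males given a drug, some of these genes were higher than with saline and a few were lower. Relative to male C26 saline muscle, 15 genes rose and 2 fell with 5-fluorouracil, where 23.3% of all genes passed (11.3% higher and 12% lower). With paclitaxel 12 rose and 3 fell, where 31.9% passed (13.5% higher and 18.5% lower), but 3 rose and 1 fell once the GC slope was a covariate. With cisplatin 11 rose and 1 fell, where 15.9% passed (7.66% higher and 8.23% lower). The medians of the 30 genes were 0.33, 0.35 and 0.29 for 5-fluorouracil, paclitaxel and cisplatin, against -0.031, -0.0046 and -0.040 for all genes. These comparisons share the male C26 saline libraries with the tumour comparison, so opposite signs in the 2 kinds of comparison are not independent. Each set of values is given on its own. With male C26 saline replicate 4 left out, 16 rose and 2 fell with 5-fluorouracil. In the same way 15 rose and 3 fell with paclitaxel, and 15 rose and 1 fell with cisplatin. The share of all genes was not computed for these fits.

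For lower glycolysis, Pgam2 had a lowest, median and highest log2 expression of 10.58, 10.84 and 11.67 with 5-fluorouracil, 10.14, 10.88 and 11.30 with paclitaxel and 10.20, 10.64 and 11.25 with cisplatin, against the 9.01, 9.79 and 11.01 of C26 saline. Its log2 differences were 1.07 ± 0.22 with 5-fluorouracil (adjusted p = 0.00039), 0.94 ± 0.24 with paclitaxel (adjusted p = 0.00404) and 0.89 ± 0.22 with cisplatin (adjusted p = 0.00315). All treated libraries lay above the C26 saline mean, and each group overlapped C26 saline. Eno3 differed by 0.96 ± 0.19, 0.88 ± 0.20 and 0.81 ± 0.19 with 5-fluorouracil, paclitaxel and cisplatin, and Pkm by 0.91 ± 0.18, 0.88 ± 0.19 and 0.87 ± 0.18. Tpi1 differed by 0.88 ± 0.15, 0.80 ± 0.17 and 0.82 ± 0.15, with adjusted p of 3.28e-05, 0.000934 and 8.42e-05. Every one of these 9 differences of Eno3, Pkm and Tpi1 passed. Pgk1 passed with 5-fluorouracil only, at 0.33 ± 0.12 (adjusted p = 0.0367), against 0.078 ± 0.13 with paclitaxel and 0.29 ± 0.12 with cisplatin; the difference between drugs was not tested.

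Gpd1 showed the largest rise of the 30 genes with each drug. It lay at 9.37, 9.73 and 10.38 with 5-fluorouracil, 8.76, 9.91 and 10.06 with paclitaxel, 9.32, 9.68 and 10.12 with cisplatin and 7.83, 8.68 and 9.67 with saline. The log2 differences were 1.15 ± 0.18 (adjusted p = 7.94e-06), 1.06 ± 0.19 (adjusted p = 0.000418) and 1.08 ± 0.18 (adjusted p = 1.49e-05). Of the treated libraries, 5 of 8, 4 of 6 and 4 of 8 lay above every C26 saline library.

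Of the 4 glycogen breakdown genes, 3 rose with each drug. Phkg1 lay at 8.68, 9.06 and 9.30 with 5-fluorouracil, 8.16, 8.81 and 9.37 with paclitaxel, 8.76, 8.97 and 9.35 with cisplatin and 7.27, 8.18 and 9.18 with saline, and differed by 0.92 ± 0.15, 0.70 ± 0.16 and 0.90 ± 0.15 (adjusted p = 1.16e-05, 0.00199 and 1.59e-05). Pygm differed by 0.72 ± 0.16, 0.61 ± 0.17 and 0.61 ± 0.16, and Phka1 by 0.68 ± 0.16, 0.46 ± 0.17 and 0.81 ± 0.16, all of them called. Phkb was called with none of the drugs. For all 3 called genes the treated medians exceeded the C26 saline median, and the groups overlapped.

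Uptake, early steps and lactate handling gave smaller differences. Slc2a4 rose with each drug, by 0.35 ± 0.10, 0.33 ± 0.11 and 0.30 ± 0.10 (adjusted p = 0.0111, 0.0217 and 0.0387), and Pfkm by 0.57 ± 0.15, 0.59 ± 0.16 and 0.42 ± 0.15 (adjusted p = 0.00341, 0.00524 and 0.0407). Scaling to the plain library sum ended the Slc2a4 call with every drug (adjusted p = 0.129 with 5-fluorouracil, 0.187 with paclitaxel and 0.276 with cisplatin). Slc16a3 rose with 5-fluorouracil (0.62 ± 0.21, adjusted p = 0.0275) and paclitaxel (0.65 ± 0.23, adjusted p = 0.0257), as did Ldha, by 0.47 ± 0.14 and 0.46 ± 0.15. Cisplatin gave 0.41 ± 0.21 and 0.34 ± 0.14 for these genes, which did not pass. Pfkfb1 rose with 5-fluorouracil (0.52 ± 0.17) and cisplatin (0.63 ± 0.17), against 0.35 ± 0.18 with paclitaxel. Hk2 was called with 5-fluorouracil only (0.50 ± 0.18, adjusted p = 0.0391). Hk1, Gpi1, Aldoa, Gapdh, Ldhb, Fbp2, Gys1, Ppp1r3c, Pfkfb3, Pfkfb4 and Slc2a1 were called with no drug.

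On the synthesis side, Ugp2 was lower with each drug. It lay at 7.03, 7.82 and 9.21 with 5-fluorouracil, 6.50, 7.64 and 8.68 with paclitaxel, 6.83, 8.54 and 9.14 with cisplatin and 8.47, 9.59 and 10.66 with saline, and differed by -1.49 ± 0.37, -1.94 ± 0.40 and -1.26 ± 0.37 (adjusted p = 0.00251, 0.000832 and 0.0126). Gbe1 fell with 5-fluorouracil (-0.90 ± 0.28) and paclitaxel (-1.17 ± 0.30), with -0.65 ± 0.28 for cisplatin. Ppp1r3a fell with paclitaxel, at 4.17, 4.95 and 7.10 against 6.67, 7.09 and 7.65 in C26 saline (-1.75 ± 0.54, adjusted p = 0.012). In every drug group where 1 of these 3 genes fell, its lowest values were those of the libraries with a GC slope above 0.1, of which the male C26 saline group had 0. The slope comes from the same expression values, and its part in these falls was not tested. The GC slope averaged 0.12 ± 0.25 (SD) with 5-fluorouracil, 0.26 ± 0.26 with paclitaxel, -0.014 ± 0.26 with cisplatin and -0.10 ± 0.058 in C26 saline, and the mitochondrial share 6.88 ± 4.41%, 5.24 ± 4.90%, 9.85 ± 5.38% and 9.36 ± 3.72% in the same groups.

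**Figure D3:**
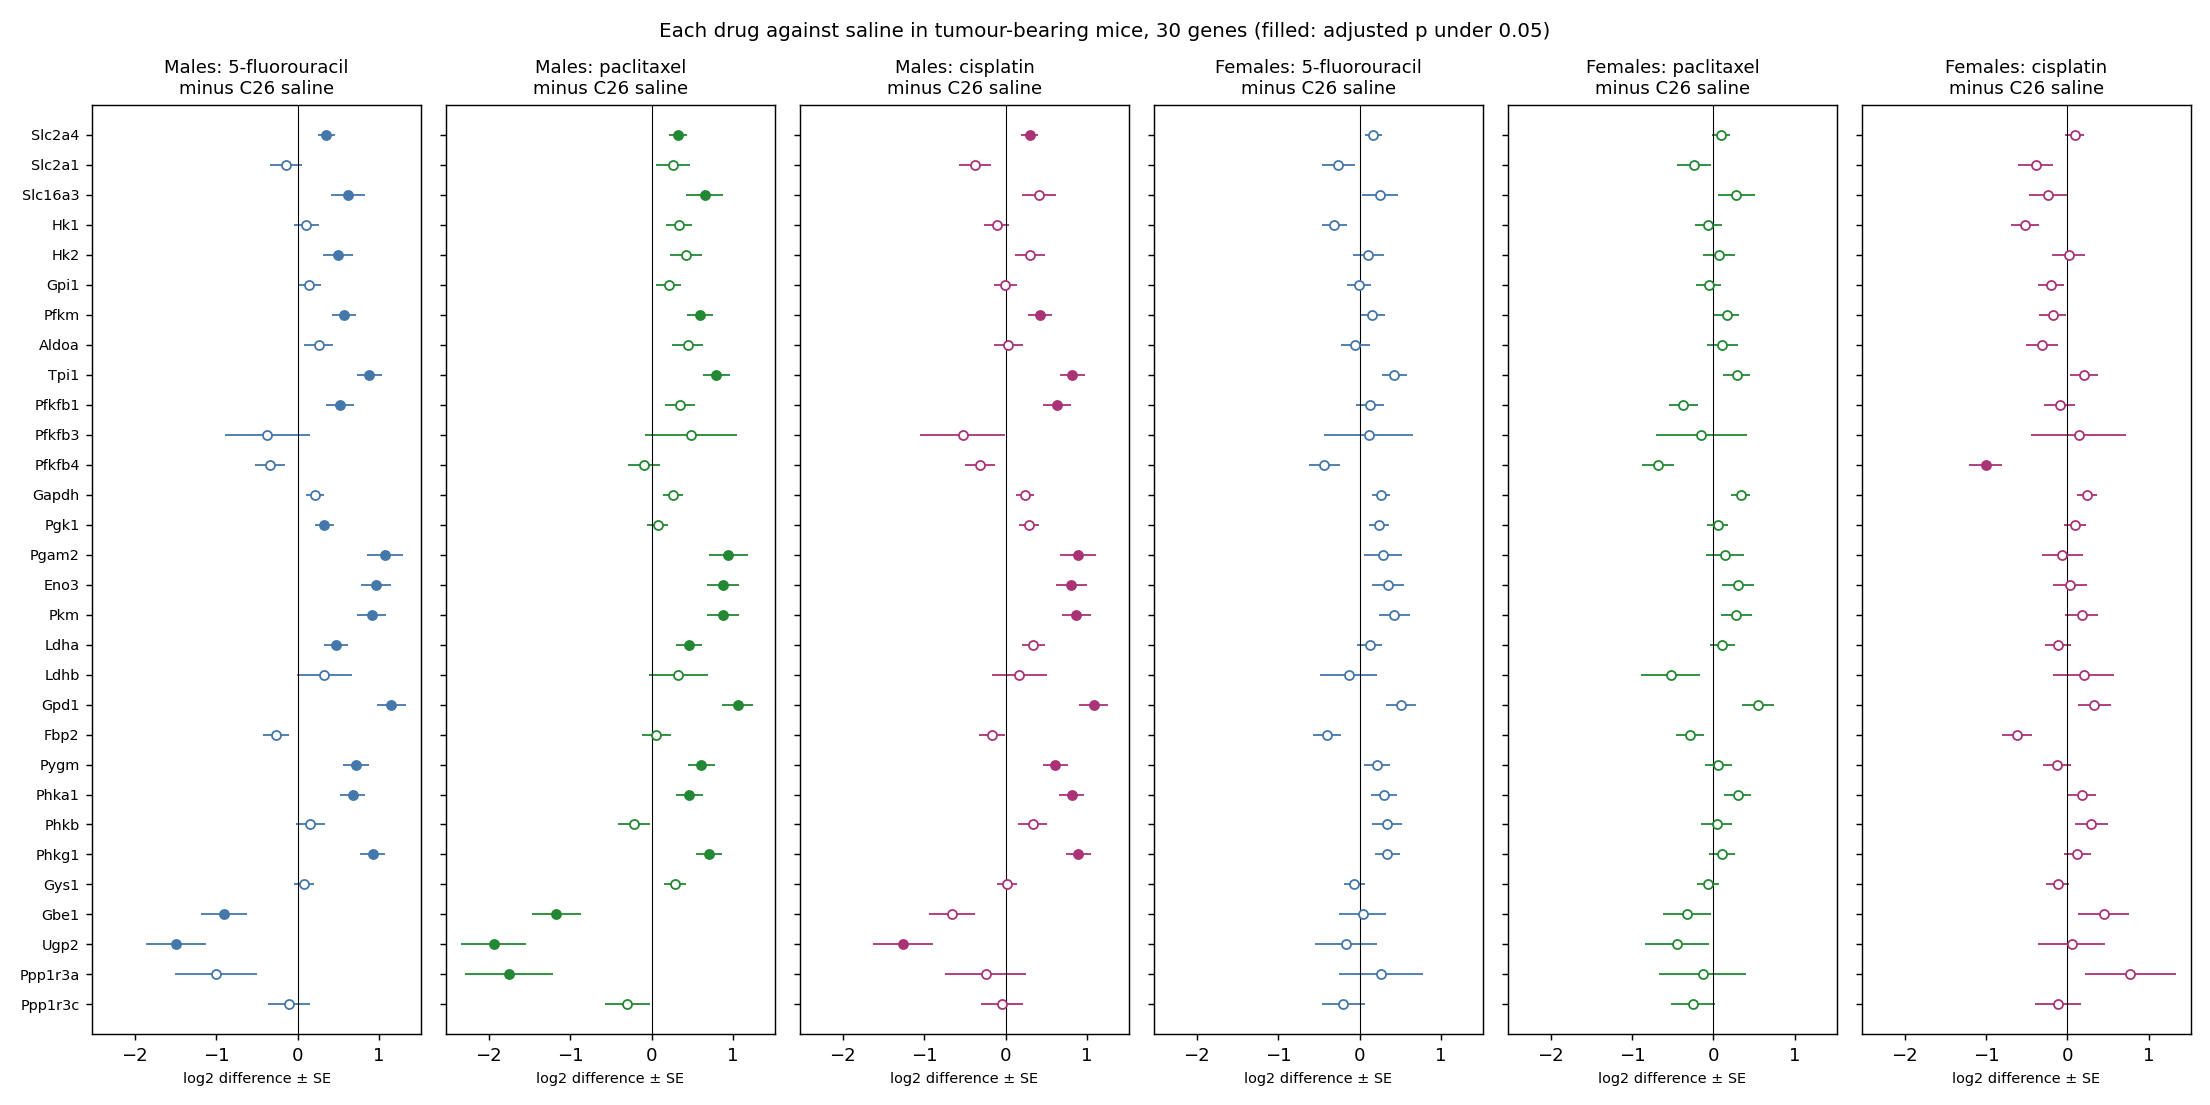
Log2 difference of each drug minus saline in C26 hosts (horizontal axes, ± SE) for the 30 genes, males in the left 3 panels and females in the right 3, filled where the limma adjusted p is under 0.05. Filled points in males are mostly to the right, 15 with 5-fluorouracil, 12 with paclitaxel and 11 with cisplatin, and the females have 1, Pfkfb4 with cisplatin.

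With the GC slope accounted for, the counts with 5-fluorouracil and cisplatin stayed within 1.5 times and most of the paclitaxel calls were lost. With the slope as a covariate, 12 genes rose and 2 fell with 5-fluorouracil, where 22% of all genes passed, and 3 rose and 1 fell with paclitaxel, where 3.48% passed. With cisplatin 13 rose and 3 fell, where 28.6% of all genes passed, against 15.9% without the covariate. The paclitaxel calls were Gpd1 at 0.71 ± 0.18, Phka1 at 0.60 ± 0.18, Phkg1 at 0.62 ± 0.17 and Ugp2 at -0.70 ± 0.19. Pgam2 was then at 0.37 ± 0.19 (adjusted p = 0.264) and Eno3 at 0.41 ± 0.16 (adjusted p = 0.121) with paclitaxel. Ppp1r3a went to 0.064 ± 0.13, with its sign reversed, and Gbe1 to -0.32 ± 0.19. Ugp2 was lower with 5-fluorouracil, -0.74 ± 0.17, and with cisplatin, -0.95 ± 0.16. Without the 19 libraries above 0.1, which left 2 male paclitaxel libraries, 3 genes rose with paclitaxel, where 5.21% of all genes passed, and they were Tpi1, Gpd1 and Phkg1. The tumour comparison in males had 5 genes higher and 14 lower with the covariate, and 5 higher and 12 lower without those libraries, where 40.6% and 36.4% of all genes passed, against 26.1% with all libraries and no covariate.

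**Figure D4:**
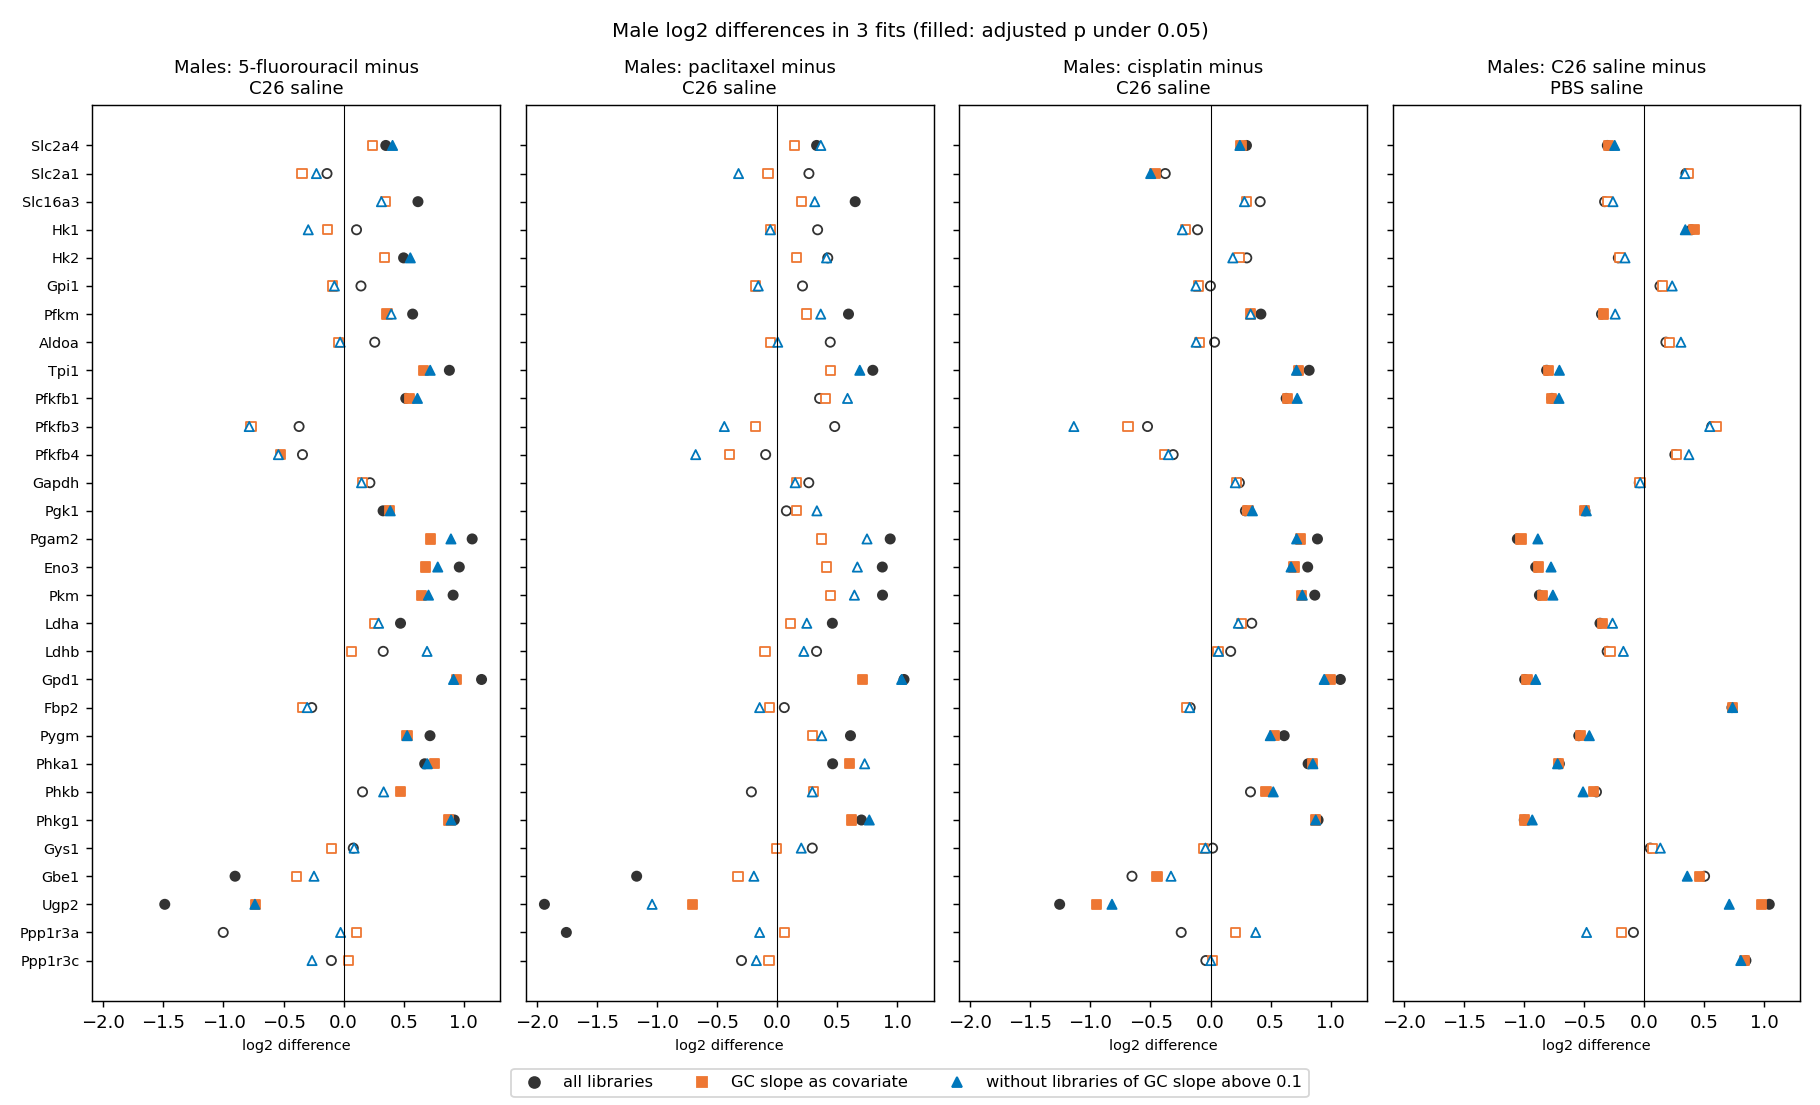
Log2 differences (horizontal axes) of the 30 genes in males for each drug minus C26 saline and for C26 saline minus PBS saline, with all libraries (circles), with the GC slope as a covariate (squares) and without the 19 libraries of slope above 0.1 (triangles), filled where the limma adjusted p is under 0.05. In the paclitaxel panel Ppp1r3a goes from -1.75 with all libraries to 0.064 with the covariate and most filled circles have open squares.

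Fast fibre markers moved with the drug comparisons as well. In males 6 of 12 rose with each drug, with summed expression of 162000, 183000 and 246000 (lowest, median and highest) with 5-fluorouracil, 123000, 173000 and 264000 with paclitaxel, 141000, 187000 and 220000 with cisplatin and 91400, 121000 and 216000 in C26 saline. All 7 measured neutrophil markers fell with 5-fluorouracil and with cisplatin and 0 with paclitaxel. Neutrophil sums were 7.76, 15.2 and 32.7 with paclitaxel, against 10.2, 27.4 and 33.2 in C26 saline. Median macrophage sums were 90.1, 126 and 74.2 with 5-fluorouracil, paclitaxel and cisplatin and 116 in C26 saline. In the same order, median adipocyte sums were 1430, 1190, 1170 and 1700, and median slow fibre sums 1050, 1760, 1480 and 1350. Their part in the result was not tested.

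Relative to male PBS muscle 1 gene was called with 5-fluorouracil, where 4.76% of all genes passed (2.52% higher and 2.24% lower), and 8 with paclitaxel, where 37.5% passed (16.9% higher and 20.6% lower). Neither count exceeds the share over all genes. With cisplatin 0 were called in limma, where 0.902% passed (0.556% higher and 0.346% lower) and 2 of the 30 had an unadjusted p under 0.05, as had 1649 of all genes. The gene called with 5-fluorouracil was Hk1, which lay at 3.36, 4.00 and 4.66 with the drug and 3.08, 3.47 and 3.91 in PBS muscle and rose by 0.50 ± 0.15 (adjusted p = 0.0403). With paclitaxel Hk1 (0.73 ± 0.16), Fbp2 (0.79 ± 0.17), Aldoa (0.63 ± 0.19), Slc2a1 (0.61 ± 0.21) and Gys1 (0.34 ± 0.13) rose, and Pgk1 (-0.41 ± 0.13), Phkb (-0.61 ± 0.20) and Ppp1r3a (-1.84 ± 0.54) fell. Of these 8, only Fbp2 passed once the GC slope entered the fit, and 0 were called without the libraries above 0.1. Pgam2 differed from PBS muscle by 0.016 ± 0.22 with 5-fluorouracil, -0.11 ± 0.24 with paclitaxel and -0.16 ± 0.22 with cisplatin, and Phkg1 by -0.075 ± 0.15, -0.29 ± 0.16 and -0.10 ± 0.15. None of these 6 differences passed, which does not show that the groups were alike.

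In tumour-bearing females 1 of the 30 genes was called with a drug, a count near the share of all genes. Pfkfb4 lay at 4.89, 5.39 and 5.73 with cisplatin and 5.78, 6.40 and 7.09 in C26 saline, and fell by 1.00 ± 0.20 (adjusted p = 0.0025), where 1.66% of all genes passed (0.346% higher and 1.31% lower). All 6 cisplatin libraries lay below every C26 saline library, and 2.3% of all genes had groups that did not overlap (1.38% lower). Neutrophil markers summed to 1.38, 3.63 and 5.25 with cisplatin and 5.73, 12.7 and 37.4 in C26 saline, and macrophage markers to 58.1, 72.4 and 104 with cisplatin and 88.3, 121 and 179 in C26 saline, with 2 of 7 and 0 of 8 called lower. Their part in the result was not tested. The log2 differences of Pfkfb4 with 5-fluorouracil and paclitaxel were -0.43 ± 0.19 (adjusted p = 0.378) and -0.68 ± 0.20 (adjusted p = 0.486). With 5-fluorouracil 0 genes were called, where 1.35% of all genes passed (0.152% higher and 1.2% lower) and 7 of the 30 had an unadjusted p under 0.05, as had 1385 of all genes. With paclitaxel 0 were called, where 0% of all genes passed in limma and 4 of the 30 had an unadjusted p under 0.05, as had 845 of all genes. With library quality weights in limma, 6 genes were called with 5-fluorouracil, 1 with paclitaxel and 6 with cisplatin (3 higher and 3 lower), where 7.12%, 0.852% and 16.8% of all genes passed.

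Relative to female PBS muscle, 0 genes were called in limma with 5-fluorouracil, where 0.383% of all genes passed (0.209% higher and 0.173% lower) and 2 of the 30 had an unadjusted p under 0.05, as had 920 of all genes. With cisplatin 0 were called, where 0.209% passed (0.0794% higher and 0.13% lower) and 1 had an unadjusted p under 0.05, as had 1174 of all genes. With paclitaxel 1 was called, where 4.58% passed (2.89% higher and 1.69% lower). This was Pfkfb1, at 4.83, 5.06 and 6.02 with paclitaxel and 5.80, 5.96 and 6.25 in PBS muscle, which fell by 0.62 ± 0.18 (adjusted p = 0.0312), with 5 of 7 paclitaxel libraries below every PBS library. Gpd1, which rose with each drug in males, differed from C26 saline in females by 0.51 ± 0.19, 0.55 ± 0.19 and 0.33 ± 0.20 with 5-fluorouracil, paclitaxel and cisplatin, and none of these passed.

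In the interactions of sex with each drug 0 of the 30 genes were called, as was 0% of all genes in each. An unadjusted p under 0.05 was found for 8 of the 30 with 5-fluorouracil, 10 with paclitaxel and 15 with cisplatin, and for 2044, 2704 and 1993 of all 13856 genes. The smallest was that of Phkg1 with cisplatin, whose drug difference was higher in males by 0.77 ± 0.22 (adjusted p = 0.18). Without male C26 saline replicate 4, 3 of the 30 passed with cisplatin. The share of all genes in that fit was not computed, so the count is not read as a sex difference of these genes.

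Differences between paired genes within a library do not depend on library scaling. In an exact two-sided permutation test over samples, adjusted over 32 tests, 6 passed, all with an adjusted p of 0.0497. The log2 difference of Hk2 minus Hk1 was 4.52 ± 0.28 (SD, n = 7) in female C26 saline and 5.04 ± 0.26 (n = 7) in female PBS muscle, lower in the tumour group by the exact test. The same difference was 4.52 ± 0.51 (n = 8) in male C26 saline and 5.12 ± 0.28 (n = 8) in male PBS muscle, and 5.06 ± 0.29 (n = 6) in female cisplatin against 4.52 ± 0.28 (n = 7) in female C26 saline muscle. Gys1 minus Pygm was -3.58 ± 0.48 (n = 8) in male C26 saline and -4.17 ± 0.17 (n = 8) in male PBS muscle, and -4.21 ± 0.26 (n = 8) with 5-fluorouracil against -3.58 ± 0.48 in C26 saline. Slc2a1 minus Slc2a4 was -6.69 ± 0.18 (n = 8) in female 5-fluorouracil and -6.25 ± 0.32 (n = 7) in female C26 saline muscle. Without the libraries of GC slope above 0.1, or without female C26 saline replicate 7 alone, 0 of the 32 passed. Leaving out female PBS replicate 2 alone also gave 0. There were 9 without male C26 saline replicate 4, and also 9 without male C26 saline replicate 3.

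Other genes of the pathway, listed by role, are set beside the 26.1% of all genes that passed in the male tumour comparison (13.1% higher and 13% lower). Of 17 further glycolytic genes measured, 6 fell and 1 rose, of 21 further glycogen genes 3 fell and 3 rose, of 12 genes for pyruvate entry into mitochondria 4 fell and 1 rose, and of 9 further transport genes 1 fell and 1 rose. The glycogen and transport counts are near that share. Pgm1, the phosphoglucomutase that joins glycogen and glycolysis, lay at 8.08, 9.26 and 10.39 in male C26 saline and 10.18, 10.38 and 10.61 in male PBS muscle and fell by 1.25 ± 0.19 (adjusted p = 6.53e-07). Gpd2, the mitochondrial partner of Gpd1 in the glycerol phosphate shuttle, fell by 1.07 ± 0.16 and Bpgm, bisphosphoglycerate mutase, by 0.91 ± 0.14. Among the calmodulin genes, whose protein is the delta subunit of phosphorylase kinase, Calm2 fell by 1.02 ± 0.17 and Calm3 by 0.96 ± 0.19. Pdp1, a phosphatase that activates pyruvate dehydrogenase, fell by 1.27 ± 0.33, as did the complex members Dlat, by 0.67 ± 0.15, and Pdhx, by 0.47 ± 0.10. The platelet-type phosphofructokinase Pfkp rose by 0.80 ± 0.14 and Tbc1d4, a brake on GLUT4 traffic, by 0.76 ± 0.17.

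Of 16 regulators 4 rose and 4 fell in males with the tumour, beside the same 13.1% and 13% of all genes. Prkag3, the gamma subunit of AMP kinase found in glycolytic fibres, lay at 3.69, 5.25 and 6.92 in male C26 saline and 7.35, 7.63 and 8.11 in male PBS muscle and fell by 2.36 ± 0.28 (adjusted p = 1.22e-09). No tumour library reached the PBS range, and 2.16% of all genes had every male C26 saline library below every PBS library. Myc, which drives glycolytic genes in proliferating cells, rose by 1.34 ± 0.23, and Arnt, the partner of the hypoxia factor, by 0.78 ± 0.13. In female C26 saline muscle Prkag3 fell by 1.13 ± 0.30 and Calm2 by 0.71 ± 0.18, while Myc rose by 1.16 ± 0.24 and the transporter Slc2a3 by 1.29 ± 0.28 relative to female PBS muscle.

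With the drugs in males, Pgm1 rose by 1.17 ± 0.19 with 5-fluorouracil, 0.91 ± 0.21 with paclitaxel and 1.22 ± 0.19 with cisplatin, and Prkag3 by 1.86 ± 0.28, 1.49 ± 0.30 and 1.87 ± 0.28. Gpd2 rose by 0.89 ± 0.16, 0.65 ± 0.17 and 0.93 ± 0.16. Glycogenin, Gyg1, the protein primer of glycogen, fell by 0.57 ± 0.13, 0.66 ± 0.14 and 0.53 ± 0.13. Of the 17 further glycolytic genes 7 rose with 5-fluorouracil, 7 with paclitaxel and 5 with cisplatin, and 0, 0 and 1 fell. Of all genes 23.3%, 31.9% and 15.9% passed (11.3%, 13.5% and 7.66% higher). With the GC slope as a covariate, 3.48% of all genes passed with paclitaxel. The slope was above 0.1 in 4 of 6 male paclitaxel libraries and in 0 of 8 male C26 saline libraries. The paclitaxel values of Pgm1, Prkag3, Gpd2 and Gyg1 and the paclitaxel count of 7 rest on the fit without the covariate. In females 0 of the 17 further glycolytic genes were called with any drug. Among the 16 regulators 1, Myc, fell with cisplatin in females, by 1.15 ± 0.25 (adjusted p = 0.00543). Aldoa, Gapdh, Ldha, Pgk1, Tpi1 and Pkm have processed pseudogenes or near-identical copies, so their values carry an uncertainty from the division of shared reads.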

How the data were processed

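RNA sequencing libraries of gastrocnemius from 10 groups were compared within each sex. The authors deposited 1 table of normalized log2 expression, with whole-transcriptome values for 13856 genes. FastQC, MultiQC, fastp, Salmon, edgeR, limma and the GRCm39 (mm39) build appear in the submitters' processing notes with no version. Salmon estimates divide reads between similar transcripts. Because the deposited values are on a log2 scale, they were fitted with limma 3.58.1 in R 4.3.3, as 1 model of 10 group means over 73 libraries (63 residual degrees of freedom), with contrasts within each sex and Benjamini-Hochberg adjustment over all genes. The procedure was tested on simulated data with independent noise. Changes of 0.5 log2 units were recovered for 41.8%, 20.9% and 32.8% of changed genes in the female 5-fluorouracil, paclitaxel and cisplatin comparisons with C26 saline. Changes of 1 log2 unit were recovered for 91.0%, 88.1% and 88.1%, so small differences can go uncalled. Figures were drawn with matplotlib 3.10.9.

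Recovered library counts came from the spacing of low values, and 85.0% to 90.7% of values were whole within 0.02. The closest libraries of a group still differed beyond sampling noise. To obtain a library's GC slope, each gene's deviation from its own mean was regressed on transcript GC content (in SD units) and log2 length together, using 10637 genes whose mean log2 was at least 1. GC values were matched for 99.5% of gene IDs.

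All 30 genes are named. Genes named from each further list were taken from the up to 3 called genes with the smallest adjusted p per comparison, and not all of these are printed. 1 of these results is not reported here. The genes and lists were chosen with earlier results of these data known. Labels give every library the same batch. 1 female library was left out because its title says saline and its treatment label says 5-fluorouracil, and female PBS replicate 8 was not analysed here. Alternatives were quantile normalization, scaling to the library sum, a filter at mean log2 of 1, log2(value + 1), the compared groups alone, quality weights, a replicate block, the GC slope as covariate, leaving out libraries of slope above 0.1, and leaving out each library.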

Additional observations from a re-analysis of the deposited data

Results flagged for a closer look

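Within groups of 6 to 8 libraries, 30 of 300 gene and group sets held a library whose gap to its nearest neighbour exceeded Dixon's 95% limit, where chance gives about 1 in 20, or 15 sets. Values are log2 expression.

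Female C26 saline replicate 7 accounted for 7 of them. It was highest of its group for Slc16a3 (8.85), Pfkm (12.45), Pkm (12.32) and Pygm (13.58), and lowest for Gbe1 (3.99), Ugp2 (7.05) and Ppp1r3a (4.56). It was the only female C26 saline library with a GC slope above 0.1. Male C26 saline replicate 4 was highest of its group for Slc16a3 (9.34), Tpi1 (11.08), Pgk1 (10.26) and Pkm (12.06). Male 5-fluorouracil replicate 4, whose GC slope was also above 0.1, was highest of its group for Slc16a3 (9.69), Pgam2 (11.67), Eno3 (13.08) and Pkm (12.63).

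Female cisplatin replicate 2 was lowest for Pfkfb1 (5.02), Pygm (12.78) and Phka1 (8.43), and replicate 1 of that group for Slc2a4 (9.07) and Ldhb (7.45). Male C26 saline replicate 6 was lowest for Ldhb (6.17) and Gys1 (8.76), and replicate 8 for Fbp2 (5.24). In male 5-fluorouracil muscle replicate 7 was lowest for Slc2a4 (9.13) and replicate 8 for Ldhb (6.19). In female 5-fluorouracil muscle replicate 8 was highest for Pgk1 (10.05) and replicate 5 lowest for Phka1 (8.85). Female paclitaxel replicate 6 was lowest for Ppp1r3c (9.10). Female PBS replicate 6 was highest for Slc2a1 (3.65) and replicate 1 lowest for Slc16a3 (7.32).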

How the results depend on the processing

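The male tumour, 5-fluorouracil and cisplatin counts against their controls stayed within 1.5 times of 16, 17 and 12 in every planned setting that kept all libraries or dropped those of GC slope above 0.1. Counts of the 30 genes that moved further are as follows, and the cause was not tested. Where no count over all genes stands beside them, they are not read as results about the 30 genes. With the GC slope as covariate there were 6 in female C26 saline minus PBS, 3 in female 5-fluorouracil minus C26 saline, 2 in female paclitaxel minus PBS, 4 in male paclitaxel minus C26 saline, 2 in male paclitaxel minus PBS and 2 in male cisplatin minus PBS. Without libraries of slope above 0.1 there were 3 in female cisplatin minus C26 saline, 3 in male paclitaxel minus C26 saline, 0 in male paclitaxel and in male 5-fluorouracil minus PBS, and 0 pair differences. With quality weights there were 5 in female C26 saline minus PBS, 6, 1 and 6 in female 5-fluorouracil, paclitaxel and cisplatin minus C26 saline, 4 and 1 in female paclitaxel and cisplatin minus PBS, 4 in male 5-fluorouracil minus PBS, and 1, 2, 12 and 3 in the sex interactions for tumour, 5-fluorouracil, paclitaxel and cisplatin. Female cisplatin minus C26 saline gave 2 under quantile normalization, the mean filter, log2(value + 1) and the compared groups alone. Of all genes tested, 328, 212, 283 and 668 passed in those settings. The compared groups alone also gave 0 in female paclitaxel minus PBS and 8 in male paclitaxel minus C26 saline. There, 583 and 2983 of all genes passed.

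Scaling to the library sum gave 0 in male 5-fluorouracil minus PBS, where 427 of the 13856 genes passed. It moved the median of all genes to 0.11 in male C26 saline minus PBS. In male 5-fluorouracil, paclitaxel and cisplatin minus C26 saline it moved that median to -0.21, -0.17 and -0.20. In the same 4 comparisons the 30 genes split into 4 higher and 10 lower, 11 and 4, 9 and 3, and 9 and 3. Of the 13856 genes, 3747, 4099, 4471 and 3016 passed there.

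The fit with a replicate block gave 2 in female cisplatin minus C26 saline and 2 in female paclitaxel minus PBS, where 270 and 855 genes passed. It also gave 2 in male 5-fluorouracil minus PBS and 1 in male cisplatin minus PBS. In no pair of groups did every same-numbered pair correlate above 0.1 (3 of 8 for male C26 saline and PBS, 5 of 7 for female), and the main fit did not pair libraries by number. Same-numbered libraries correlated more than others in some group pairs, such as female C26 saline and paclitaxel (mean 0.27 against -0.035). In others they correlated less, such as male cisplatin and paclitaxel (-0.21 against 0.028). Whether the numbers carry a shared order or batch was not tested.

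Signs reversed for Ppp1r3a (0.064) in male paclitaxel and Pdp1 (0.56) in male 5-fluorouracil minus C26 saline with the covariate, and without libraries of slope above 0.1 for Pdp1 (0.60) and, in male paclitaxel, Slc2a8 (-0.0052).

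Leaving out 1 library gave 12 to 18 in male C26 saline minus PBS, 13 to 18, 11 to 18 and 10 to 16 in male 5-fluorouracil, paclitaxel and cisplatin minus C26 saline, and 0 to 2, 4 to 13 and 0 to 1 in the same groups minus PBS. The paclitaxel range ran from 4 without paclitaxel replicate 1 to 13 without replicate 4. In females it gave 1 to 3 for the tumour, 0 to 0, 0 to 0 and 1 to 2 for the drugs minus C26 saline, and 0 to 0, 0 to 1 and 0 to 0 minus PBS. The sex interactions gave 0 to 2, 0 to 0, 0 to 0 and 0 to 3, and the pair differences 0 to 9. For fits that left out 1 library the share of all genes was not computed. Depths of 11.4 to 40.5 M reads limit most the genes of low expression, such as Hk1.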
